A study of Mus musculus with 112 samples.

Results

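The transcripts described here are the messenger RNAs of the mouse mitochondrial genome. They were found as all symbols starting with mt- in both count tables, which gave 13 genes of 32544, all protein-coding. Of the 37 genes annotated on the mitochondrial genome, the 2 ribosomal and 22 transfer RNA genes were not analysed here. The libraries came from gastrocnemius muscle of Diversity Outbred mice aged 16 weeks, an outbred stock bred from several inbred founder strains, in which 1 hind limb had been immobilized in a cast for 3 weeks and the other limb served as the control. There were 28 female and 28 male animals, with both limbs of each sequenced, which gave 4 groups of 28 libraries and 112 libraries in all: female control, female immobilized, male control and male immobilized. No drug or engineered allele is named for any group. Total RNA was depleted of ribosomal RNA before stranded library preparation.

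The mitochondrial genome is a small circle that encodes core subunits of the respiratory chain. The other subunits and every protein factor that copies, transcribes and translates it are encoded in the nucleus. Both strands are transcribed as long precursors that are cut, mostly at transfer RNAs, into single messages. Muscle fibres hold large numbers of mitochondria, so these messages are among the most abundant in muscle. The 13 messages encode 7 subunits of complex I, the NADH dehydrogenase (mt-Nd1, mt-Nd2, mt-Nd3, mt-Nd4, mt-Nd4l, mt-Nd5 and mt-Nd6), cytochrome b of complex III (mt-Cytb), 3 catalytic-core subunits of complex IV, cytochrome c oxidase (mt-Co1, mt-Co2 and mt-Co3), and 2 subunits of complex V, the ATP synthase (mt-Atp6 and mt-Atp8). The gene mt-Nd6 lies on the opposite strand to the other 12.

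Sequences bear on what a count of these genes means in 2 ways. First, neighbouring messages share bases: mt-Atp8 shares its last 43 bases with the start of mt-Atp6, and mt-Nd4l shares its last 7 bases with the start of mt-Nd4. The capitals below mark the shared bases in the GENCODE release 21 transcripts (GRCm38, 5′ to 3′), and a read that falls wholly within them cannot be told apart between neighbours.
mt-Atp8: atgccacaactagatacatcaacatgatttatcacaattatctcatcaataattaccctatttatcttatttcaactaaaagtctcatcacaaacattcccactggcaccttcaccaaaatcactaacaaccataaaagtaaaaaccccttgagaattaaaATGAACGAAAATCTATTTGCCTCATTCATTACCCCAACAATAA
mt-Nd4l: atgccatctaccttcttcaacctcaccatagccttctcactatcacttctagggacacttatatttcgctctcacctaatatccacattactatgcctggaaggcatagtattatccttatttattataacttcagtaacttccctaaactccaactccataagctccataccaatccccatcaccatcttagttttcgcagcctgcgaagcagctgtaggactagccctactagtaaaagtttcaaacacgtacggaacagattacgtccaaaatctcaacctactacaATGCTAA
The overlap made up 21.1% of the 204 bases of mt-Atp8 and 2.36% of the 297 bases of mt-Nd4l.

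Second, the nuclear genome holds pseudogenes that are nearly identical to these messages, and the count tables list reads on them. Aligning the annotated transcripts found 15 nuclear copies with at least 90% identity to a member over at least 80% of the copy. The copy Gm10222 was identical to mt-Nd4l over 294 bases, Gm28661 was identical to mt-Co2 over 681 bases, and Gm29216 matched the last 483 bases of mt-Co1 with 1 mismatch. The pair of mt-Nd3 and its copy Gm28438 is shown because Gm28438 was counted more often than mt-Nd3 itself. They differ by T3C, with positions counted from 1 at the first base of mt-Nd3, and the capitals mark that base in the first 120 bases of each.
mt-Nd3: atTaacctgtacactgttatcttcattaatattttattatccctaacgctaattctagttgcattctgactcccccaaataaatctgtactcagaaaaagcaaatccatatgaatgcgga
Gm28438: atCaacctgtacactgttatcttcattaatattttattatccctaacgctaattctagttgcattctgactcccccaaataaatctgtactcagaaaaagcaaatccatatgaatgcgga
Over all libraries 624597 reads were counted on Gm28438 and 313604 on mt-Nd3. The copies together held from 2.16% to 29.1% of the reads on members and copies in a library, with a median of 9.23%. Values of a member are from its own row unless the reads of its copies are said to be added, an alternative chosen after seeing the data.

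Library totals ran from 1716485 to 9995936 counts, and all 13 members were among the 11886 genes that passed the low-count filter. The labelled tissue was checked with 13 muscle fibre markers, whose sum had medians of 173346 to 189507 normalised counts at a common library size (CPM) in the 4 groups. The actin of muscle fibres, Acta1, was below 50% of its median over all libraries in 10 libraries of 10 animals: the immobilized limbs of females 2, 22, 41 and 42 and male 35, and the control limbs of females 26, 44 and 48 and males 52 and 55. In the control limb of male 52 the muscle fibre markers summed to 58.3 CPM and the adipocyte markers to 21160 CPM, so muscle fibre markers were nearly absent from that library. In bulk tissue, fewer cells of a type and less RNA per cell cannot be told apart. Results are given below with and without these 10 animals. The limbs of males 15 and 16 matched each other's better than their own: over the 150 genes whose deviations were most alike in the limbs of the other 54 animals, r was 0.13 and 0.14 between the limbs labelled as 1 animal, and 0.97 for both crossed pairs. In a separate match of all 56 animals, also over 150 genes, the best match of the control limb was its own immobilized limb in the other 54. In that match r was 0.16 between the limbs labelled as male 15 and also for male 16. That count is a description and not a test. The pairing of males 15 and 16 is therefore in doubt, and they were kept as labelled.

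Summed mitochondrial messages were lower relative to nuclear counts in the immobilized limb of most animals of both sexes. Nuclear counts were all counts outside the 13 mt- rows, and so included the reads on the nuclear copies. In females the sum per 100 nuclear counts ran from 4.64 to 33.3 with a median of 19.4 in control limbs, and from 3.62 to 32.9 with a median of 13.5 in immobilized limbs. In males it ran from 11.6 to 39.4 with a median of 21.4 in control limbs, and from 2.05 to 47.3 with a median of 16.1 in immobilized limbs. The groups overlapped widely, and the shift was seen within animals. The sum was lower in the immobilized limb in 23 of 28 females, with a median log2 change of -0.53, a lowest of -2.07 and a highest of 2.23. It was lower in 22 of 28 males, with a median of -0.48, a lowest of -2.87 and a highest of 0.96. The highest value in females came from animal 26, whose control limb was 1 of the 10 low-Acta1 libraries, and the lowest in males from animal 35, whose immobilized limb was another. Without the 10 animals, 18 of 21 females and 19 of 25 males were lower, with median log2 changes of -0.49 and -0.29. Without males 15 and 16, 21 of 26 males were lower, with a median of -0.48. With the copies added to the members and taken out of the nuclear counts, 23 females and 22 males were again lower, with medians of -0.48 and -0.45. With nuclear counts scaled by their TMM factor, 21 females and 21 males were lower, with medians of -0.54 and -0.22. The sum ran from 2.05 to 25.1 with a median of 7.29 in the 10 low-Acta1 libraries, and had a median of 17.1 in the other 102. The part of muscle fibre content in the limb difference was not tested, and these sums were described and not tested.

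**Figure D1:**
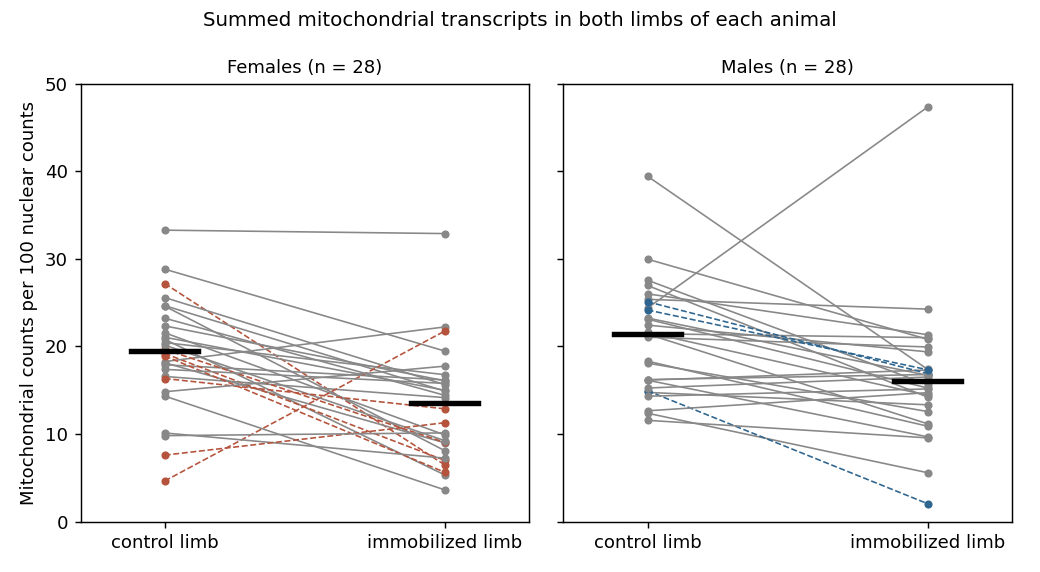
Summed mitochondrial counts per 100 nuclear counts (y axis) in the control and immobilized limb of each animal, females left and males right (28 each); lines join the limbs of 1 animal, black bars are medians, and dashed coloured lines are the 10 animals with a low-Acta1 library. Most lines slope down, with medians of 19.4 and 13.5 in females and 21.4 and 16.1 in males.

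The animals carry numbers in 3 blocks (1 to 20, 21 to 40 and 41 to 59), for which no processing date is given. In females the sum was lower in 10 of 10 animals numbered 1 to 20, in 6 of 8 numbered 21 to 40 and in 7 of 10 numbered 41 to 59, with median log2 changes of -0.87, -0.53 and -0.24. In males it was lower in 8 of 10, 8 of 10 and 6 of 8, with medians of -0.41, -0.34 and -0.48. The direction of the median was thus the same in all 3 blocks of both sexes.

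Per gene, 7 of the 13 messages fell in the immobilized limb of females and 0 of 13 passed the test in males, by edgeR's quasi-likelihood test with animals as blocks and Benjamini-Hochberg adjustment over 11886 genes at 0.05. Over all genes tested in females, 4.57% were called and 2.47% were called lower. In males 2.21% of all genes were called and 1.12% were called lower. DESeq2 called 10 messages lower in females, where it called 4.61% of all genes lower, and 3 in males, where it called 2.13% lower. The fitted log2 fold changes of the 13 messages were all below 0 in both sexes, with a median of -0.66 in females and -0.38 in males, while the median over all genes tested was 0.01 and 0.00. Neighbouring messages are cut from shared precursors, so the 13 values are not independent of one another. Among the male messages 3 of 13 had an unadjusted p under 0.05, against 2022 of 11886 genes. In females numbered 1 to 20 the fit called 10 messages lower, where 2.22% of all genes were called lower, and in the other 2 blocks of females it called no message and no gene of any kind.

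The largest fitted changes were in 2 short messages that end inside their neighbours and in the long message mt-Nd5. For mt-Atp8, the small membrane subunit of ATP synthase, levels in females ran from 161 to 3929 CPM with a median of 2175 in control limbs, and from 88 to 4410 with a median of 898 in immobilized limbs. Males ran from 492 to 4262 CPM with a median of 2289 in control limbs and from 174 to 5532 with a median of 1429 in immobilized limbs. The groups overlapped, but mt-Atp8 was lower in the immobilized limb of 21 of 28 females and 24 of 28 males. Its log2 fold change was -1.17 ± 0.28 (SE) in females, with an edgeR adjusted p of 0.017, and -0.75 ± 0.27 in males, with an adjusted p of 0.117.

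The subunit of complex I encoded by mt-Nd4l was identical to its copy Gm10222, and adding the copy moved its fitted change. On its own row mt-Nd4l ran from 81 to 2512 CPM with a median of 1586 in female control limbs and from 0 to 2877 with a median of 734 in female immobilized limbs. In males the range was 0 to 3056 CPM with a median of 1769 in control limbs and 0 to 3704 with a median of 1225 in immobilized limbs. Both zeros in females and both in males came from animals 3, 24 and 32, in which Gm10222 held at least 82.5% of the reads of the pair, while no read was counted on Gm10222 in the other 53 animals. In female 3 the control limb had 953 reads on mt-Nd4l and 4491 on Gm10222, and the immobilized limb 0 and 4504. In female 24 the control limb had 1207 and 6354, and the immobilized limb 0 and 7811. In male 32 both limbs had 0 reads on mt-Nd4l, with 10767 on Gm10222 in the control limb and 3321 in the immobilized limb. A read wholly within the 294 identical bases cannot be told apart by its sequence, so the sum of mt-Nd4l and Gm10222 is given as well. Why the division of reads differed between animals was not tested. On its own row the log2 fold change was -1.34 ± 0.37 in females, with an edgeR adjusted p of 0.031, and -0.64 ± 0.34 in males, with an adjusted p of 0.329. With Gm10222 added it was -0.99 ± 0.27 in females, with an adjusted p of 0.030, and -0.68 ± 0.26 in males, with an adjusted p of 0.141.

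The message mt-Nd5, for a proton-pumping subunit of complex I, ran from 550 to 12607 CPM with a median of 5776 in female control limbs and from 806 to 13545 with a median of 3028 in female immobilized limbs. In males mt-Nd5 ran from 2235 to 13827 CPM with a median of 6332 in control limbs and from 269 to 13252 with a median of 4416 in immobilized limbs. It was lower in the immobilized limb of 22 females and 23 males, although the groups overlapped. The log2 fold change was -0.93 ± 0.25 in females, with an edgeR adjusted p of 0.026, and -0.75 ± 0.24 in males, with an adjusted p of 0.072, which was the smallest of any message in males.

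Of the other complex I messages, mt-Nd2 fell in females and the remaining 4 did not pass the test. In females mt-Nd2 ran from 1439 to 20389 CPM with a median of 9598 in control limbs and from 1036 to 18526 with a median of 5214 in immobilized limbs. In males the medians were 9709 and 8130 CPM, and mt-Nd2 was lower in the immobilized limb of 22 females and 21 males. Its log2 fold change was -0.79 ± 0.23 in females, with an edgeR adjusted p of 0.041, and -0.44 ± 0.22 in males, with an adjusted p of 0.299. In females the values were -0.56 for mt-Nd1, -0.62 for mt-Nd4, -0.44 for mt-Nd3 and -0.41 for mt-Nd6, with edgeR adjusted p-values from 0.064 for mt-Nd4 to 0.224 for mt-Nd3. In males they were -0.26 for mt-Nd1, -0.35 for mt-Nd4, -0.11 for mt-Nd3 and -0.30 for mt-Nd6. The medians in female control and immobilized limbs were 14823 and 11474 CPM for mt-Nd1, 18854 and 13575 for mt-Nd4, and 3536 and 2832 for mt-Nd6, with overlapping ranges. Animals lower in the immobilized limb numbered 20 females and 20 males for mt-Nd1, 21 and 19 for mt-Nd4, and 17 and 20 for mt-Nd6. The own row of mt-Nd3 held the smaller part of its reads: Gm28438 took a median of 76.6% of the pair, from 0% to 93.3%. It was lower in the immobilized limb of 19 females but only 11 of 28 males. With the copy added, mt-Nd3 had a log2 fold change of -0.53 ± 0.18 in females, with an edgeR adjusted p of 0.068, and -0.20 ± 0.17 in males, with an adjusted p of 0.585.

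Among the cytochrome messages, mt-Co1 and mt-Co3 fell in females, and mt-Co2 and mt-Cytb did not pass the test. The catalytic subunit message mt-Co1 ran from 5039 to 76492 CPM with a median of 36902 in female control limbs and from 2073 to 70735 with a median of 19120 in female immobilized limbs. In males mt-Co1 ran from 9458 to 78925 CPM with a median of 38640 in control limbs and from 669 to 84841 with a median of 29213 in immobilized limbs. It was lower in the immobilized limb of 25 females and 22 males, the largest number of females for any message. The log2 fold change of mt-Co1 was -0.87 ± 0.24 in females, with an edgeR adjusted p of 0.029, and -0.60 ± 0.23 in males, with an adjusted p of 0.137. With its 3 copies added it was -0.71 ± 0.21 in females, with an adjusted p of 0.038, and -0.51 ± 0.20 in males, with an adjusted p of 0.154.

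For mt-Co3, levels in females ran from 3606 to 34584 CPM with a median of 21844 in control limbs and from 3570 to 33235 with a median of 14511 in immobilized limbs. In males the medians were 23648 and 18174 CPM, and mt-Co3 was lower in the immobilized limb of 22 females and 19 males. Its log2 fold change was -0.66 ± 0.20 in females, with an edgeR adjusted p of 0.045, and -0.38 ± 0.19 in males, with an adjusted p of 0.304. For mt-Cytb the medians were 20192 and 13615 CPM in females and 18597 and 16560 in males, with 20 animals of each sex lower. Its fold changes were -0.58 ± 0.20 in females and -0.37 ± 0.19 in males, with edgeR adjusted p-values of 0.072 and 0.317. The own row of mt-Co2 ran from 8 to 46895 CPM, and its log2 fold change was -0.51 ± 0.23 in females and -0.26 ± 0.23 in males, with edgeR adjusted p-values of 0.169 and 0.590. With its 2 copies added, mt-Co2 ran from 3317 to 47275 CPM and had log2 fold changes of -0.37 ± 0.16 and -0.22 ± 0.16.

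The larger ATP synthase message, mt-Atp6, ran from 3635 to 34598 CPM with a median of 18418 in female control limbs and from 1850 to 31872 with a median of 12914 in female immobilized limbs. In males the medians were 18674 and 15460 CPM, and mt-Atp6 was lower in the immobilized limb of 22 females and 22 males. The log2 fold change of mt-Atp6 was -0.72 ± 0.21 in females, with an edgeR adjusted p of 0.038, and -0.39 ± 0.20 in males, with an adjusted p of 0.300. Each of the 4 respiratory complexes with a mitochondrial subunit, other than complex III, thus had at least 1 message called lower in females.

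**Figure D2:**
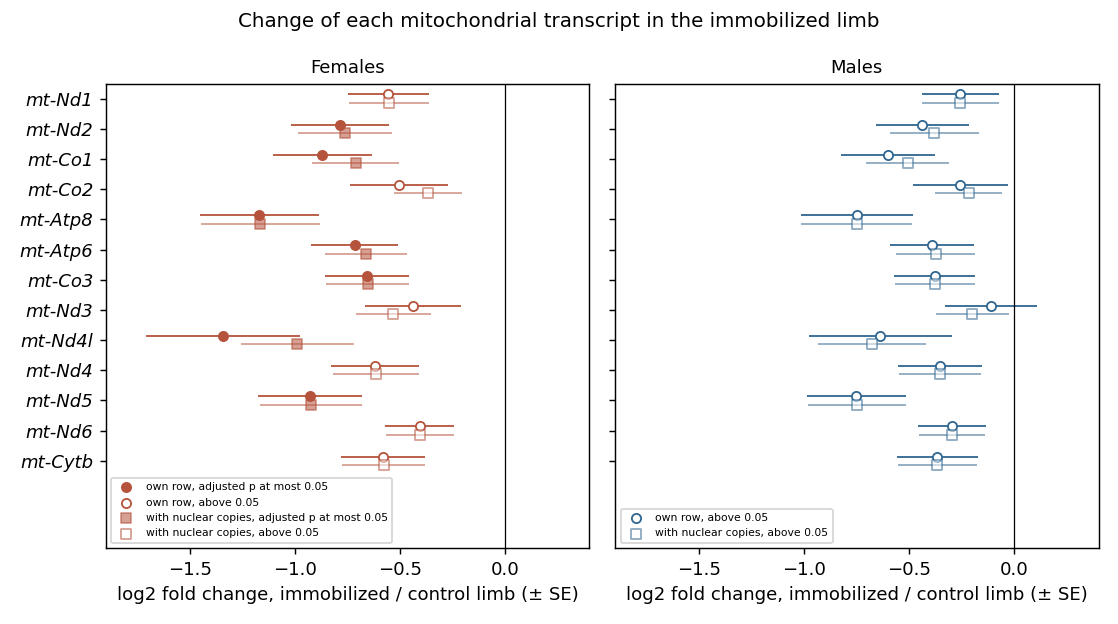
Fitted log2 fold change of each message (x axis, immobilized over control limb, with SE) in order along the mitochondrial genome, females left and males right; circles are own rows, squares have nuclear copies added, and filled symbols have an adjusted p at most 0.05. All points lie below 0, and 7 of 13 messages are filled in females and 0 in males on either count. Of all genes, 293 of 11886 were called lower in females and 133 in males on own rows. With copies added these were 289 and 141 of 11877.

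Leaving out the 10 animals with a low-Acta1 library gave fold changes with smaller errors and more calls. In females 11 messages were then called lower, where 9.1% of all genes were called lower, and the 2 not called were mt-Co2 and mt-Nd3. With copies added 13 of 13 were called lower in these females, from -0.38 ± 0.12 for mt-Co2 to -1.15 ± 0.23 for mt-Atp8, where 9.35% of all genes were. In males mt-Co1, mt-Atp8 and mt-Nd5 were called lower, where 4.9% of all genes were, and with copies added mt-Nd4l was called as well, where 4.59% were. The log2 fold changes of those 4 in males with copies added were -0.46 ± 0.12 for mt-Co1, -0.68 ± 0.21 for mt-Atp8, -0.70 ± 0.16 for mt-Nd5 and -0.61 ± 0.16 for mt-Nd4l.

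Normalizing by nuclear counts alone, rows of the copies included, kept the same number of calls, 7 in females and 0 in males. The medians over the messages were -0.65 and -0.37. Of 11886 genes, 271 were then called lower in females and 126 in males. With library totals in place of TMM factors the median over all genes moved to 0.10 in females, and the split of all called genes went from 293 lower and 250 higher to 148 lower and 230 higher. The messages called lower then numbered 8 in females, where 1.25% of all genes were called lower, and 1 in males, where 0.799% were.

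The sexes were not shown to differ in this response. The male minus female difference in log2 fold change was above 0 for 13 of 13 messages, from 0.11 ± 0.23 for mt-Nd6 to 0.70 ± 0.50 for mt-Nd4l, and the latter was 0.31 ± 0.37 with Gm10222 added. No difference passed the test (edgeR adjusted p of 1.00 for each), and 0% of 11886 genes did. At an unadjusted p under 0.05 there were 0 messages and 194 genes, and DESeq2 also called 0 messages. The median difference over the messages was 0.28 and turned to -0.31 in animals numbered 21 to 40.

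Direct comparison of males with females gave no called message in either limb. In the control limb the log2 difference ran from -0.05 ± 0.30 for mt-Nd3 to 0.30 ± 0.29 for mt-Nd4l, and 1.73% of 10974 genes were called. In the immobilized limb it ran from 0.22 ± 0.38 for mt-Nd3 to 0.66 ± 0.42 for mt-Nd4l, where 4.33% of 11144 genes were called, and the smallest edgeR adjusted p was 0.193 for mt-Nd4. At an unadjusted p under 0.05 there were 0 messages in the control limb and 2 in the immobilized limb, and DESeq2 called none in either. With library totals in place of TMM factors the median over all genes moved to -0.13 in the immobilized limb, and the split of all called genes went from 334 lower in males and 149 higher to 717 and 88. In the control limb that split went from 83 and 107 to 145 and 66.

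Per kilobase of transcript, levels of the messages spanned about an order of magnitude in control limbs. With copies added, the medians in female control limbs were 30872 CPM per kb for mt-Co2, 28315 for mt-Co1, 27754 for mt-Co3 and 27115 for mt-Atp6. The next were mt-Cytb at 17593, mt-Nd1 at 15493, mt-Nd4 at 13634, mt-Atp8 at 10643 and mt-Nd2 at 9612 CPM per kb. The lowest were mt-Nd6 at 6741, mt-Nd3 at 6371, mt-Nd4l at 5337 and mt-Nd5 at 3165 CPM per kb. Neighbours in this order differed by less than the larger of their SDs over the 28 animals, except mt-Nd4l and mt-Nd5, whose SDs were 1974 and 1518 CPM per kb. These SDs are of levels across animals, and the order within single libraries was not compared. Males had the same 4 messages at the top and mt-Nd5 at the bottom.

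The balance among the messages shifted along with their sum, which library size cannot affect. For 100 counts on mt-Atp6 there were from 3.56 to 18.4 on mt-Atp8 with a median of 12.9 in female control limbs, and from 4.47 to 16.0 with a median of 7.93 in female immobilized limbs. In males the medians were 12.8 and 9.17. The ratio was lower in the immobilized limb of 20 of 28 females and 21 of 28 males, with median log2 changes of -0.48 and -0.24. Counts on mt-Nd4l per 100 on mt-Nd4, with Gm10222 added, had medians of 8.85 and 6.54 in females and 9.08 and 6.97 in males. That ratio was lower in 20 females and 21 males, with median log2 changes of -0.35 and -0.33.

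The message of the opposite strand rose within the balance, but so did mt-Co2 of the common strand, so this direction was not particular to the strand. Counts on mt-Nd6 per 100 on the other 12 had medians of 2.22 and 2.41 in female control and immobilized limbs and 2.40 and 2.44 in male limbs. The ratio was higher in the immobilized limb of 23 of 28 females and 18 of 28 males, with median log2 changes of 0.17 and 0.08. As a share of all messages with copies added, mt-Nd5 had median log2 changes of -0.28 in females and -0.36 in males, mt-Co2 had 0.19 and 0.13, and mt-Atp6 and mt-Co3 lay between -0.04 and 0.02 in both sexes. These ratios were described and not tested. No source used here says whether the authors' counting used strand, so reads antisense to mt-Nd6 may be included in its count.

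**Figure D3:**
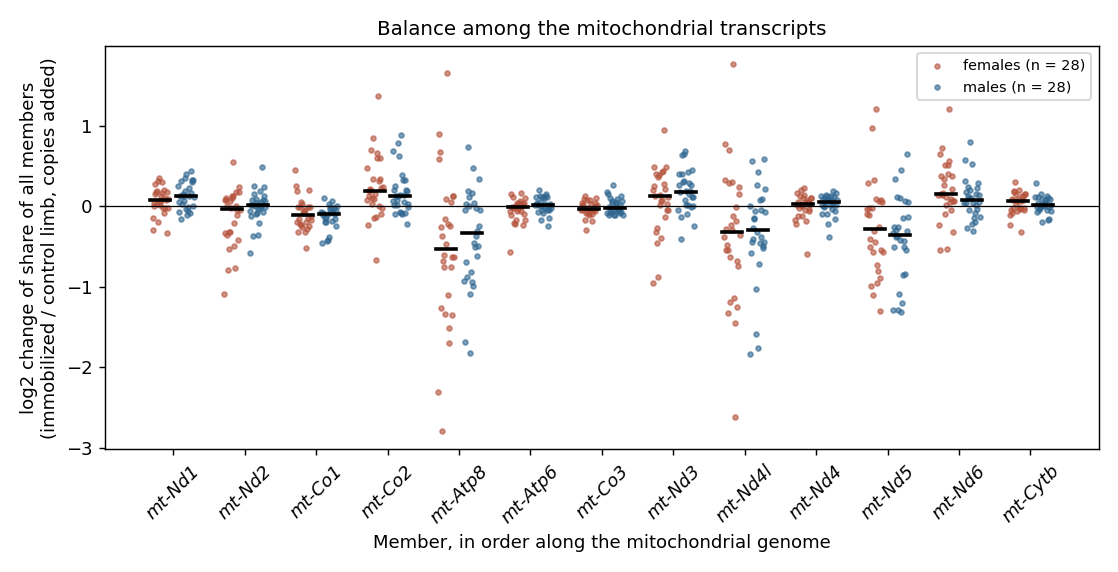
Log2 change of the share each message takes of all 13 (y axis, immobilized over control limb, copies added), 1 point per animal and black bars at the medians, in order along the mitochondrial genome. The widest spreads and lowest medians are those of mt-Atp8, mt-Nd4l and mt-Nd5, while mt-Atp6 and mt-Co3 sit close to 0.

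The share of mt-Co1 reads on the copy Gm13340 lay in the same range in both limbs of every animal, while the shares on some other copies differed widely between limbs. The copy Gm13340, which spans all 1545 bases of mt-Co1 with 97.6% identity, held from 0.0237% to 0.25% of the reads of mt-Co1 and its copies in 58 libraries of 29 animals. It held 1.22% to 2.88% in 34 libraries of 17 animals, 33.0% to 37.1% in 6 libraries of animals 3, 24 and 32, and 45.7% to 51.0% in 14 libraries of animals 31, 35, 38, 46, 50, 54 and 58. Both limbs fell in the same of these 4 ranges in 56 of 56 animals. The bounds between the ranges were set after the values were seen. Each of the 2 upper ranges held animals of both sexes: 2 females and 1 male in the range from 33.0%, and 2 females and 5 males in the range from 45.7%.

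The same 10 animals of the upper ranges stood apart at other messages. There the own row of mt-Co2 held only 0.107% to 12.6% of the reads of mt-Co2 and its copies, against 25.8% to 99.99% in the libraries of the other 46 animals. The copy Gm13339 of mt-Nd2 held 33.9% to 66.8% of that pair in the 10 animals and at most 2.06% in the others. Reads on Gm10222 were found only in animals 3, 24 and 32. The cause of this division was not tested. Between the limbs of 1 animal the shares on some copies moved widely. The share on Gm28661, a copy of mt-Co2, differed by -33.2 to 48.5 percentage points in females and -34.5 to 31.5 in males, immobilized minus control limb, and that on Gm28438, the copy of mt-Nd3, by -26.2 to 21.7 and -62.7 to 25.4. The highest of these male values for Gm28661 came from male 16, whose pairing is in doubt. A limb comparison of an own row therefore holds such differences in division.

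The copy Gm29216 differed between limbs. It held from 0.00% to 51.4% of the mt-Co1 reads in female control limbs with a median of 19.0%, and from 0.00% to 62.4% with a median of 25.2% in female immobilized limbs. In males it held from 0.00% to 41.1% with a median of 15.9% in control limbs and from 2.34% to 37.7% with a median of 21.0% in immobilized limbs. Its share was higher in the immobilized limb of 20 of 28 females and 22 of 28 males, by a median of 4.66 and 3.81 percentage points. The counts of Gm29216 itself did not pass the test, with log2 fold changes of 0.15 ± 0.42 in females and 0.40 ± 0.41 in males and edgeR adjusted p-values of 0.850 and 0.664. Among the 9 copies that passed the low-count filter, Gm4076, a copy of mt-Nd5, was called in females, at -1.24 ± 0.38 with an adjusted p of 0.049, and none was called in males.

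How far a level belonged to the animal was described with the 2 limbs. For mt-Co1 in males, levels in the control and immobilized limbs were related, with Pearson's r of 0.80 (permutation p of 1e-05, the smallest that 100000 resamples can give, and 6.0e-05 adjusted over 6 relations) and Spearman's rho of 0.74 (permutation p of 2.0e-05, adjusted 0.00012). Without the 2 males farthest from the median r was 0.84. In females r was 0.28 and rho 0.40 (permutation p of 0.153 and 0.0347, adjusted 0.458 and 0.104), and r was 0.56 without the 2 farthest animals and 0.77 without the 7 low-Acta1 females (adjusted permutation p of 0.00018). The own row of mt-Co1 carries the division among copies described above, and with copies added r was 0.71 in males and 0.27 in females. For mt-Nd6, which has little signal on a copy, r was 0.24 in males and -0.13 in females, with permutation p of 0.232 and 0.521 (adjusted 0.464 and 0.550), and rho was 0.34 and -0.01 (permutation p of 0.0759 and 0.952, adjusted 0.152 and 0.990). For mt-Nd4l without animals 3, 24 and 32, r was 0.15 in males and -0.12 in females (permutation p of 0.452 and 0.550, adjusted 0.550 for both) and rho was 0.23 and 0.00 (permutation p of 0.244 and 0.990, adjusted 0.366 and 0.990).

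Among the marker sums of other cells compared with the change in mt-Co1 across animals, only that of macrophages passed in both sexes with all animals. Over 16 relations in all, 8 in each sex, the change in mt-Co1 of females had a Pearson's r of -0.86 and rho of -0.83 with that of 8 summed macrophage markers (permutation p of 1e-05 for each, adjusted 3.2e-05 and 0.00016). In males r was -0.54 and rho -0.49 (permutation p of 0.00278 and 0.00814, adjusted 0.00494 and 0.0163). Without the 2 animals farthest from the median of the marker change r was -0.75 in females and -0.45 in males, and without the low-Acta1 animals it was -0.70 and -0.53 (adjusted permutation p of 0.00392 and 0.0241), where rho in males was -0.40 (adjusted 0.183). The summed macrophage markers ran from 64 to 693 CPM in female control limbs, 24 to 1574 in female immobilized limbs, 21 to 343 in male control limbs and 34 to 1485 in male immobilized limbs. All 8 were in the tables and none was at 0 throughout. Their part in the lower mt-Co1 was not tested.

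For 11 markers of T, B and NK cells, r was -0.89 and rho -0.75 in females (permutation p of 1e-05 and 3.0e-05, adjusted 3.2e-05 and 0.00024), and r was -0.43 and rho -0.17 in males (permutation p of 0.0435 and 0.387, adjusted 0.058 and 0.442). Leaving out the 2 farthest animals gave r of -0.79 in females and -0.57 in males, and leaving out the low-Acta1 animals gave -0.57 and -0.31, where rho in females was -0.44 (adjusted permutation p of 0.183). These markers summed to medians of 3 to 6 CPM, with up to 1696 CPM in single female control limbs. Summed adipocyte markers had an r of -0.58 and rho of -0.56 in females (permutation p of 0.00108 and 0.00253, adjusted 0.00216 and 0.00578), with r of -0.62 without the 2 farthest, and -0.29 without the low-Acta1 females (adjusted permutation p of 0.276). In males r was -0.36 and rho -0.30 (permutation p of 0.0757 and 0.126, adjusted 0.0866 and 0.156), with r of -0.12 without the 2 farthest.

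Of the nuclear genes compared across animals, the coactivator Ppargc1a, which promotes mitochondrial biogenesis, had an r with mt-Co1 of 0.81 and rho of 0.66 in females (permutation p of 1e-05 and 0.00029, adjusted 3.2e-05 and 0.000928), and 0.62 without the 2 farthest. In males r was 0.80 and rho 0.72 (permutation p of 1e-05 and 5.0e-05, adjusted 3.2e-05 and 0.000267), and r was 0.61 without the 2 farthest. Without the low-Acta1 animals r with Ppargc1a was 0.37 in females (adjusted permutation p of 0.186), so the relation there rested on those animals, and 0.65 in males (adjusted permutation p of 0.0039). The packaging and transcription factor Tfam had an r of 0.69 and rho of 0.62 in females (permutation p of 4.0e-05 and 0.00049, adjusted 0.000107 and 0.00131) and of 0.80 and 0.44 in males (permutation p of 5.0e-05 and 0.019, adjusted 0.000114 and 0.0304). Without the 2 farthest animals r with Tfam was 0.68 in females and 0.38 in males, and without the low-Acta1 animals it was 0.44 and 0.57 (adjusted permutation p of 0.129 and 0.0241), with rho of 0.32 and 0.29 (adjusted 0.306 for both). The relation with Tfam in females, and by rank in males, was thus not called without those animals.

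Muscle actin had a relation in females as strong as that of Ppargc1a, and none was called in males. A nuclear complex IV subunit and depth gave weaker relations than Ppargc1a in both sexes. With Acta1, r was 0.85 and rho 0.66 in females (permutation p of 1e-05 and 0.00013, adjusted 3.2e-05 and 0.00052), 0.77 without the 2 farthest, and 0.39 without the low-Acta1 females, where the call was lost (adjusted permutation p of 0.180). In males r with Acta1 was 0.32 and rho 0.00 (permutation p of 0.0745 and 0.991, adjusted 0.0866 and 0.991), and -0.05 without the 2 farthest. With Cox4i1, r was 0.26 and rho 0.36 in females (permutation p of 0.175 and 0.0644, adjusted 0.186 and 0.0937), 0.18 without the 2 farthest. In males r with Cox4i1 was 0.48 and rho 0.30 (permutation p of 0.0142 and 0.124, adjusted 0.0228 and 0.156), and 0.11 without the 2 farthest, so it rested on those animals. With the library total, r was 0.41 and rho 0.47 in females (permutation p of 0.0328 and 0.0125, adjusted 0.0477 and 0.0223), 0.32 without the 2 farthest, and r was 0.17 and rho -0.04 in males (permutation p of 0.385 and 0.833, adjusted 0.385 and 0.889), 0.09 without the 2 farthest. Without the low-Acta1 animals r with the library total in females was 0.28 and r with Cox4i1 in males 0.07, neither of which passed (adjusted permutation p of 0.276 and 0.723). These values are for the own row of mt-Co1. With copies added, r with Cox4i1 in females was 0.41 and passed (adjusted permutation p of 0.0493), r and rho with the library total in females were 0.35 and 0.40 and did not (adjusted 0.0779 and 0.0555), and rho with Tfam in males was 0.37 and did not (adjusted 0.0744). All of these changes come from the same libraries and so share their scaling.

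**Figure D4:**
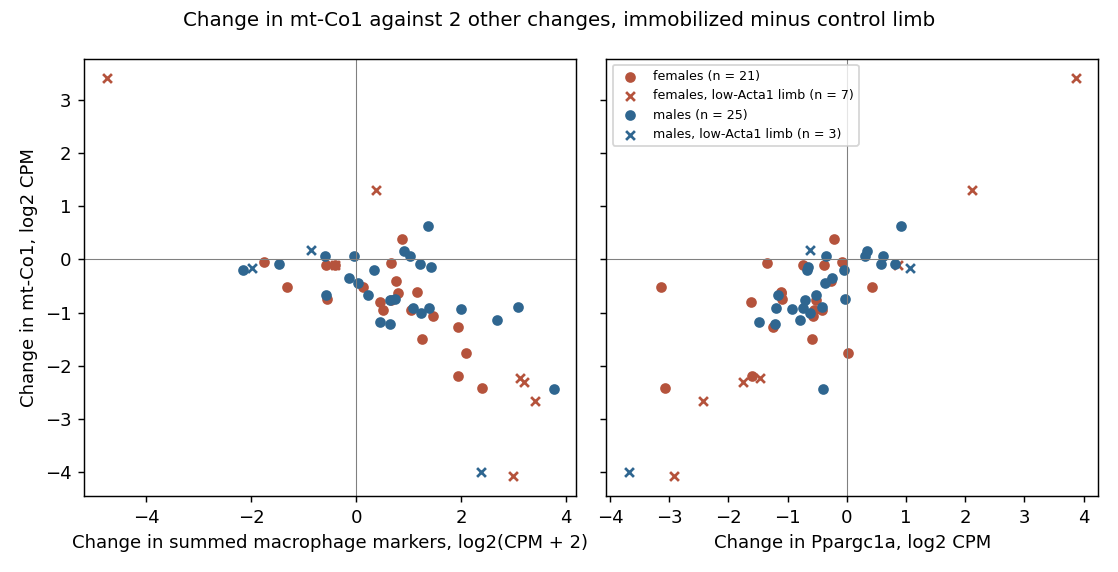
Change in mt-Co1 (y axis, log2 CPM, immobilized minus control limb) against the change in summed macrophage markers (left) and in Ppargc1a (right), 1 point per animal, with crosses for the 10 animals with a low-Acta1 library. The change in mt-Co1 is lower where macrophage markers are higher (r of -0.86 in females and -0.54 in males) and where Ppargc1a is lower (r of 0.81 and 0.80).

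The nuclear genes that serve the mitochondrial genome were read from 7 lists chosen by function, with earlier results of these data known. Of 81 genes tested from these lists, 9 fell and 0 rose in females, where 2.47% of all genes were called lower. In males 3 fell and 0 rose, where 1.12% of all genes were called lower. The median log2 fold change of the 81 was -0.14 in females and -0.09 in males, beside 0.01 and 0.00 over all genes tested. Without the 10 low-Acta1 animals 23 were called lower and 2 higher in females, where 9.1% of all genes were called lower, and 13 lower and 0 higher in males, where 4.9% were.

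With all animals, genes for the ends and stability of the messages held most of the calls in these lists. Of 7 genes for RNA cleavage and ends, 3 fell in females: the mitochondrial poly(A) polymerase Mtpap at -0.37 ± 0.08 (edgeR adjusted p of 0.0079), Trmt10c, a subunit of the enzyme that cuts the 5′ ends of transfer RNAs, at -0.41 ± 0.10 (adjusted p of 0.0133), and Angel2 at -0.20 ± 0.06 (adjusted p of 0.0431). In males only Trmt10c passed of these 7, at -0.33 ± 0.10 (edgeR adjusted p of 0.049). Of 15 genes for message stability and decay, 4 fell in females: Ptcd2 at -0.30 ± 0.07, Ptcd1 at -0.32 ± 0.08, the RNA granule protein Grsf1 at -0.48 ± 0.14 and the RNA-degrading phosphorylase Pnpt1 at -0.35 ± 0.11, with edgeR adjusted p-values of 0.0106, 0.0164, 0.0358 and 0.0458. In males 1 of the 15 fell, Ptcd2 at -0.24 ± 0.07 (edgeR adjusted p of 0.0421).

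The main stabilizers and the polymerase did not pass the test with all animals. Lrpprc, which with Slirp holds mitochondrial messages stable, was at -0.18 ± 0.10 in females and -0.09 ± 0.10 in males, and Slirp at 0.03 ± 0.10 and 0.12 ± 0.10. Of 6 genes for transcription none passed in either sex, with the smallest edgeR adjusted p in females at 0.0728 for the initiation factor Tfb2m (-0.35 ± 0.12). The mitochondrial RNA polymerase Polrmt was at -0.09 ± 0.09 and -0.15 ± 0.09 and Tfam at -0.19 ± 0.09 and -0.07 ± 0.09 in females and males. Of 11 genes for DNA replication and copying, the ribonucleotide reductase subunit Rrm2b fell in females, at -0.55 ± 0.17 (edgeR adjusted p of 0.0463), and the DNA polymerase Polg fell in males, at -0.23 ± 0.06 (adjusted p of 0.0335). Of 14 translation factors, Mtif2, an initiation factor, fell in females at -0.31 ± 0.10 (edgeR adjusted p of 0.0487) and none passed in males. None of 16 genes for ribosomal RNA modification and assembly or of 14 for transfer RNA modification passed in either sex. Those with the smallest p in the transfer RNA list were Trit1 in females (0.38 ± 0.13) and Nsun3 in males (-0.41 ± 0.13), and in the ribosomal RNA list Tfb1m in females (-0.27 ± 0.12) and Mettl15 in males (-0.46 ± 0.19). The coactivator Ppargc1a fell in females, at -0.80 ± 0.23 (edgeR adjusted p of 0.0372), and was at -0.42 ± 0.22 in males (adjusted p of 0.326), while Acta1 was at -0.15 ± 0.30 and -0.14 ± 0.29. These results are for all animals. Without the 10 low-Acta1 animals, 3 of the 6 transcription genes were called lower in females and 0 in males. Of the 15 genes for message stability and decay, 9 were then called lower and 1 higher in females, and 4 lower in males. Of the 7 genes for RNA cleavage and ends, 4 were called lower in females and 1 in males. Translation factors then had 5 and 3 called lower, replication genes 2 and 2 of 10 tested, and ribosomal RNA genes 0 and 2. Transfer RNA modification genes had 1 lower and 1 higher in females and 1 lower in males. Of all genes, 9.1% were called lower in females and 4.9% in males.

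No nuclear subunit of the respiratory complexes passed the test in either sex. Of 78 tested from complexes I to V, 0 passed in females and 0 in males by edgeR, with median log2 fold changes of -0.16 and -0.03 and the smallest adjusted p-values at 0.0527 and 0.0717. The medians in females were -0.13 over 36 subunits of complex I, -0.28 over 4 of complex II, -0.19 over 9 of complex III, -0.16 over 14 of complex IV and -0.16 over 15 of complex V. In males the medians were -0.02, -0.17, -0.13, -0.03 and -0.03 in the same order. The smallest p of each complex in females belonged to Ndufs8 (-0.31 ± 0.12), Sdhb (-0.38 ± 0.15), Uqcrc2 (-0.49 ± 0.16), Cox7b (-0.48 ± 0.15) and Atp5g2 (0.47 ± 0.15), the last of which was above 0. In males the same 5 genes came first, from -0.31 ± 0.11 for Ndufs8 to 0.48 ± 0.15 for Atp5g2. Cox4i1, a nuclear subunit of complex IV, was at -0.08 ± 0.10 in females and -0.02 ± 0.10 in males. By the test of the male minus female difference itself, 0 of these 78 genes and 0 of the 81 genes above passed. Without the 10 low-Acta1 animals 13 of the 78 nuclear subunits were called lower and 1 higher in females, where 9.1% of all genes were called lower. In males 1 was then called lower and 1 higher, where 4.9% of all genes were called lower. With all animals DESeq2 called 4 lower in females and 0 in males, where it called 4.61% and 2.13% of all genes lower. No test compared the nuclear subunits with the mitochondrial messages.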

How the data were processed

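The authors deposited whole-number read counts by gene symbol, with the sexes in separate tables, per the file headers. No source used here names their aligner, counter or genome build. Rows of members were taken as deposited. Nuclear copies were found with blastn 2.17.0 among GENCODE release 21 transcripts (GRCm38), and no coordinates are printed. Tests used edgeR 4.0.16 (R 4.3.3) on these counts: filterByExpr, TMM factors, quasi-likelihood F test, Benjamini-Hochberg adjustment over all genes and a threshold of 0.05, with 112 libraries in 1 fit, 1 term per animal and 1 immobilization effect per sex. SE was the log2 fold change divided by the square root of F. Sex comparisons used 1 limb each with no block. The block rests on the animal number in the labels, since both limbs came from 1 animal; deviations from the group means correlated above 0.1 in 45 of 56 pairs, with a median of 0.36. Per-animal log2 CPM values used a prior count of 2. Alternatives included DESeq2 1.42.0 and limma 3.58.1 (voom). The fit was tested on simulated data. Named genes were all members, up to 4 genes of each list with the smallest p, and Polrmt, Tfam, Lrpprc, Slirp, Ppargc1a, Cox4i1 and Acta1. Members, lists and tests were chosen with earlier results of these data known. Library totals ran from 1716485 to 9995936 counts, and what limited precision was not tested. No library column was left unused, no row lacked a gene name, and no libraries were identical.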

Additional observations from a re-analysis of the deposited data

How the results depend on the processing

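Messages called lower in females numbered 7 as reported, and 1 without a low-count filter, where 64 of 23414 genes were called lower. They numbered 1 with no replicate block (299 of 11886 genes lower) and 0 with each sex fitted alone (28 of 11109). They numbered 11 without the low-Acta1 animals (1067 of 11731) and 13 when copies were also added (1096 of 11720). With copies in animals numbered 1 to 20 they numbered 11 (258 of 11428). In those numbered 21 to 40 or 41 to 59 no message and no gene was called, with or without copies. Messages called lower in males numbered 0 as reported and 3 with DESeq2 (253 of 11886 genes lower). They numbered 1 with library totals (95 of 11886) and 2 with limma voom (217 of 11886). They numbered 3 without the low-Acta1 animals (575 of 11731), 4 when copies were also added (538 of 11720) and 2 with each sex fitted alone (263 of 10983). Leaving out males 15 and 16, whose pairing is in doubt, gave 7 messages in females and 0 in males. Genes called lower were then 289 and 120 of 11911. Leaving out animals 3, 24 and 32 also gave 7 and 0, with 463 and 50 of 11875 genes called lower. Without males 15 and 16 no relation across animals changed its call by r. The number blocks hold 8 to 10 animals a sex. No differing count has had its cause tested beyond these settings.

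Male changes turned above 0 for mt-Nd3 with no replicate block (0.075), and in animals numbered 41 to 59 for mt-Nd1 (0.10), mt-Nd2 (0.0058) and mt-Nd3 (0.11), or 0.10, 0.022 and 0.0075 with copies. The median difference between the sexes was -0.31 in animals numbered 21 to 40, with or without copies. Without the low-Acta1 animals r turned to -0.15 for mt-Co1 with Acta1 in males and, between limbs of females, to 0.10 for mt-Nd4l and 0.38 for mt-Nd6. For mt-Co2 in females limma voom gave -1.67 (adjusted p of 0.0081).

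All genes called in females, 543 as reported, numbered 1145 with DESeq2, 145 without a filter, 84 with each sex alone, 2017 without the low-Acta1 animals and 0 in each of the 2 later number blocks. In males, 263 as reported, they numbered 576 with DESeq2, 454 with voom, 109 without a filter, 589 with no replicate block, 582 with each sex alone, 1071 without the low-Acta1 animals, 122 without animals 3, 24 and 32, and 6, 0 and 1 in the number blocks. The sex comparison called 190 genes in the control limb and 120 to 836 under other settings, and 483 and 163 to 1743 in the immobilized limb. Summed messages and ratios kept their direction under every alternative run.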
